A study of Mus musculus with 12 samples.

Results

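The genes described here are 10 genes of glucose uptake and glycolysis in mouse thymic lymphomas: Slc2a1, Slc2a3, Hk1, Hk2, Pfkp, Pfkfb3, Pgk1, Pkm, Ldha and Slc16a3. They were chosen by name, with earlier results of these data known, and each Ensembl identifier that maps to one of these symbols was taken from the table of 37991 genes. All 10 had a row and all 10 passed the filter on low counts, which 18612 genes passed. RNA-seq was done on 12 tumours, 1 library each, of which 8 were labelled responder and 4 non-responder to genetic reactivation of wild-type p53. All animals were of the C57BL/6 background and shared the genotype p53neo/R172H;R26CreER/GNZ, so the mutant R172H allele and the tamoxifen-activated CreER were present in both groups, and all were given tamoxifen once a week. Each tumour was taken after the last magnetic resonance scan, when growth or shrinkage had been seen. The labels name no untreated tumour among these samples, so the comparison is between tumours after treatment, sorted by their response.

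Glycolysis splits glucose into pyruvate in the cytosol and yields ATP without oxygen. Glucose enters through facilitative transporters, is trapped by hexokinase, is committed at phosphofructokinase, and is then carried through phosphoglycerate kinase and pyruvate kinase, after which lactate dehydrogenase can reduce pyruvate to lactate for export. Proliferating thymocytes and T-cell tumours take up much glucose even when oxygen is present. HIF-1 and MYC are known to activate many genes of this pathway, and p53 is known to restrain glucose uptake and to induce Tigar, whose product lowers the level of a phosphofructokinase activator.

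Libraries held 20796860 to 30265753 counts, and the mean total was 25948770 ± 1955933 among responders (SD, n = 8) and 22261838 ± 1560158 among non-responders (SD, n = 4). Levels are given as CPM, the usual short form for counts scaled to library size, here with library totals adjusted by the trimmed mean of M values (TMM). A positive log2 fold change means a higher level in non-responders, and all are from edgeR's quasi-likelihood test with Benjamini-Hochberg adjustment over all 18612 genes and a threshold of 0.05. T-lineage markers (Cd3e, Lck, Thy1 and 6 others) summed to 659 to 2135 CPM among responders and 1796 to 2228 CPM among non-responders. Genes of the T lineage were thus counted in every library, which does not by itself establish the labelled tumour type. Within the T lineage, 12 of 12 markers of double-positive thymocytes had a higher fitted level in non-responders (median log2 fold change 1.16), with sums of 1482 to 6246 CPM there, 3340 to 4420 CPM in responders 1 to 3 and 393 to 792 CPM in responders 4 to 8. Of 11 tested markers of mature and activated T cells, 10 had a lower fitted level in non-responders (median -2.00), with sums of 134 to 307 CPM there and 213 to 1431 CPM in the responding group. The part of these stages in the results below was not tested. Markers of several other cell types had lower fitted levels in non-responders, with none past the adjusted threshold in edgeR, which called 0% of all genes. All 12 muscle, 10 adipocyte, 11 neutrophil, 8 erythroid, 10 endothelial and 8 B-cell markers had a lower fitted level in non-responders. Elane of neutrophils was at 0 in every non-responder. The 11 neutrophil markers together summed to 18.7 to 44.0 CPM there and 43.1 to 768 CPM among responders. The medians of these lists, in the order first given, were -3.31, -3.53, -4.47, -3.44, -1.62 and -2.48. DESeq2 called 9, 9, 8, 8, 7 and 6 of these markers as lower, beside 10.4% of all genes. limma-voom called 2, 1, 0, 4, 1 and 0 as lower, beside 4.71% of all genes. Macrophage markers (9 of 11 lower, median log2 fold change -0.22) and fibroblast markers (6 of 9 lower, median -0.47) were mixed, and non-responder 3 had 3396 CPM of macrophage markers, near the responder maximum of 3419 CPM. In a bulk tumour piece, fewer cells of a type and less RNA per cell cannot be told apart.

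The promoter windows of the genes on which the comparison turns are shown first, with the short core to which HIF binds in capitals. The core was searched as ACGTG and as GCGTG on both strands, so that CACGT and CACGC are the same cores read from the other strand, and adjacent cores can overlap. Slc2a1 is shown for the difference in its level between groups, the pair Hk1 and Hk2 for the difference in their ratio, and Pgk1 for the widest range between tumours. Windows run from 250 bases before to 50 bases after a RefSeq start (GRCm38.p6), 5′ to 3′ on the strand of the gene. They are chr4:119108495-119108794 on the plus strand for Slc2a1, chr10:62340372-62340671 on the minus strand for the downstream start of Hk1, chr6:82774405-82774704 on the minus strand for Hk2 and chrX:106186850-106187149 on the plus strand for Pgk1.
Slc2a1: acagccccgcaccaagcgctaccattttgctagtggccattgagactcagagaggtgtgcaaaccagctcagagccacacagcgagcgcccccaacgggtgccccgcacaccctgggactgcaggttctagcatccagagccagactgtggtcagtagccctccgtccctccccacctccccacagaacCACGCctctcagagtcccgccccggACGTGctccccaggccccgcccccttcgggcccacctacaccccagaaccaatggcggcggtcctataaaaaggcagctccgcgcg
Hk1: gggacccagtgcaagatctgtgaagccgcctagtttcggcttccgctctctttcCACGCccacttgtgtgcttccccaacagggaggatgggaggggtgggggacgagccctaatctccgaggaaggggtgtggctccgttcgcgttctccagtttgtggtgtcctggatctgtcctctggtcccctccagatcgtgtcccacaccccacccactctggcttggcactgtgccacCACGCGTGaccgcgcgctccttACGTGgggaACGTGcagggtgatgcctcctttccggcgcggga
Hk2: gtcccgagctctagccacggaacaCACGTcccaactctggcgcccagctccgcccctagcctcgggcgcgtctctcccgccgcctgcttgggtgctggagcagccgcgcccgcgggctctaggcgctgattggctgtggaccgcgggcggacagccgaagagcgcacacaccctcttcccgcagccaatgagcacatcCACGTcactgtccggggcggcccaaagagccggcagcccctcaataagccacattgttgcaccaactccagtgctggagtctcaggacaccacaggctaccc
Pgk1: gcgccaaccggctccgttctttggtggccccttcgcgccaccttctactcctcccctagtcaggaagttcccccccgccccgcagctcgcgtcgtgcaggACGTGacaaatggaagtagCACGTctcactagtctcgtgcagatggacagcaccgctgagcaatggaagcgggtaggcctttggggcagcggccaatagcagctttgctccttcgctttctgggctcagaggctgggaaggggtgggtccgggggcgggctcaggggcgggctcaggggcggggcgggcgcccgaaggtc
There were 2 cores in the Slc2a1 window, 5 in this Hk1 window, 2 in the Hk2 window and 2 in the Pgk1 window. The upstream Hk1 start, at chr10:62379859-62380158, had 0. The RefSeq table matched 9 of the 10 genes (not Slc2a3) with 13 windows, of which 11 held at least 1 core of either form, against 43.8% of all 32851 windows of the same length. The E-box CACGTG, which contains the core and is bound by MYC, lay in 2 of the 13 windows (1 window each of Pfkfb3 and Ldha), against 7.15% of all windows. The shares over all windows were not matched for base composition, and some genes have more than 1 window, so these counts are not read as an enrichment. The matches describe letters and not binding.

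No member passed the adjusted threshold, and the group as a whole did not lean one way. edgeR called 0 of the 10 genes, as it called 0% of all genes tested. At an unadjusted p under 0.05 there were 2 members, 1 higher (Pgk1) and 1 lower (Slc2a1) in non-responders, where 23.8% of all genes tested lay under that value (7.73% higher and 16.1% lower). That share is near the background and is not a result about these genes. DESeq2 called 1 member, lower, where it called 10.4% of all genes as lower and 2.8% as higher, 13.2% in all. limma-voom with quality weights also called 1 member, lower, where it called 4.71% of all genes as lower and 4.55% as higher, 9.26% in all. In both tools the gene was Slc2a1. Of the 10 fitted log2 fold changes, 5 were above 0 and 5 below, with a median of 0.11 beside -0.02 over all genes tested. The groups did not overlap for 1 of the 10 (Slc2a1), against 2.13% of all genes tested (1.18% lower and 0.951% higher in non-responders). The summed level of the 10 genes was 1849 to 4528 CPM in responders (median 3697) and 2952 to 5428 CPM among non-responders (median 4042), so the groups overlapped widely. Responder 4 was the lowest of all tumours and non-responder 2 the highest.

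**Figure D1:**
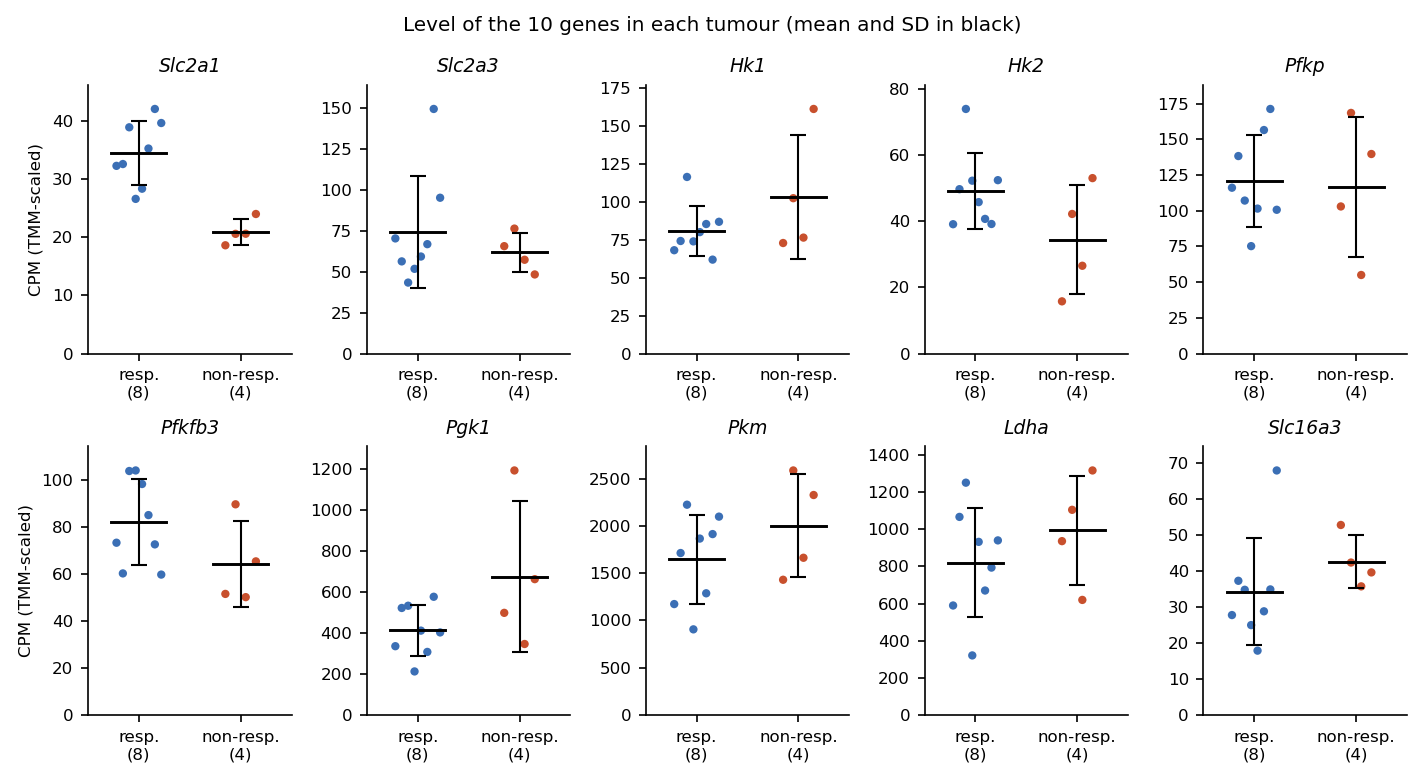
Level of each of the 10 genes in CPM (vertical axis, from 0) in the 8 responders and the 4 non-responders, 1 point a tumour, with the mean and SD in black. Slc2a1 alone has no overlap, with all non-responders at 24.01 CPM or less and all responders at 26.6 CPM or more.

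Per length of transcript, the members fell into 2 ranges of level. Pgk1, Pkm and Ldha were far more abundant than the other 7 members. Over the 12 tumours Pkm averaged 353, Ldha 265 and Pgk1 223 CPM per kilobase of annotated exon. The other 7 averaged from 10.3 (Hk1) through Pfkfb3 (10.1), Slc2a3 (9.68), Pfkp (8.92), Slc2a1 (8.55) and Hk2 (7.41) to 6.97 (Slc16a3) CPM per kilobase. Neighbours within each of these ranges overlapped from tumour to tumour. The lowest value of Pgk1, 94.8 CPM per kilobase, was above the highest of any of the 7, 20.7 for Slc2a3. These ranges are of the members and not of the whole pathway. Outside the set, Gpi1, Aldoa and Tpi1 of the earlier steps averaged 45.7, 180 and 126 CPM per kilobase. Gapdh, Pgam1 and Eno1 of the later steps averaged 152, 48.3 and 108. The lengths are unions of all annotated exons, so genes with many alternative exons, such as Pfkp, appear lower on this scale.

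Glucose transport came first in the pathway and held the clearest difference of a single member. Slc2a1 encodes GLUT1, the widespread basal glucose transporter (ENSMUSG00000028645, chromosome 4 from 119108711 to 119137983 on GRCm38). It was at 26.6 to 42.1 CPM in responders, with a median of 33.9. The 4 non-responders were at 18.6, 20.6, 20.6 and 24.01 CPM. Every non-responder was therefore below every responder, though by a narrow margin (24.01 against 26.6 CPM) beside the spread of the responders. The means were 34.5 ± 5.51 CPM (SD, n = 8) and 20.96 ± 2.24 CPM (SD, n = 4), a log2 fold change of -0.72 (SE 0.16, unadjusted p = 0.000776, edgeR adjusted p = 0.117). The adjusted p was 0.00196 in DESeq2 and 0.0390 in limma-voom, and from 0.0528 to 0.269 in edgeR with 1 tumour left out, without a change of direction. Slc2a1 was not alone in passing in both tools, which called 13.2% and 9.26% of all genes. Among genes of the other lists below, Slc2a4, Slc2a6, Emb, Pdk4, Pcx, Ddit4, Car9, Adm, Tigar and Arrdc4 also passed in both. For Ddit4 the adjusted p was 0.000746 in DESeq2 and 0.0349 in limma-voom. Slc2a1 shares 105 exonic bases with Gm12868 on the opposite strand, which was at most at 0.245 CPM in any tumour.

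The other members of the transport step did not separate the groups. Slc2a3 encodes GLUT3, a transporter of high affinity that lymphocytes use. It ranged from 43.4 to 149.7 CPM in responders, with a median of 63.1. Non-responders were at 65.7, 76.5, 57.4 and 48.4 CPM, all within the range of responders. Its log2 fold change was -0.26 (SE 0.30, edgeR adjusted p = 0.62), with -0.04 without responder 7, the highest tumour, and -0.15 without non-responder 4. Slc16a3 encodes MCT4, which exports lactate from cells with high glycolysis. It was at 17.9 to 68.0 CPM in responders, with a median of 31.8, and at 52.8, 42.4, 35.8 and 39.6 CPM among non-responders. Responder 8 stood above all other tumours, and the other 7 responders were at 37.3 CPM or less. For Slc16a3 the log2 fold change was 0.31 (SE 0.29, edgeR adjusted p = 0.52), with 0.53 without responder 8 and 0.20 without non-responder 1.

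Hexokinase, which phosphorylates glucose and so holds it in the cell, is encoded by Hk1 in most tissues and by Hk2 in muscle, fat and many tumours. Hk1 (ENSMUSG00000037012, chromosome 10 from 62268855 to 62379908) was at 61.9 to 116 CPM in responders, with a median of 77.1. Non-responders were at 72.8, 102, 76.4 and 161 CPM, so non-responder 4 was the highest of all tumours and the others lay among the responders. The log2 fold change was 0.35 (SE 0.22, edgeR adjusted p = 0.35), and 0.06 without non-responder 4. Hk2 (ENSMUSG00000000628, chromosome 6 from 82725025 to 82774454) was at 39.1 to 74.0 CPM in responders, with a median of 47.8. Non-responders were at 15.8, 42.2, 26.5 and 53.1 CPM. Non-responders 1 and 3 lay below all responders and the other two among them. For Hk2 this came to -0.51 on the log2 scale (SE 0.29, edgeR adjusted p = 0.29), with -0.27 without non-responder 1 and -0.80 without non-responder 4. Neither gene passed by itself.

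The balance of both hexokinases differed between groups without overlap. The log2 ratio of Hk2 to Hk1, taken within each library and so not affected by scaling between libraries, was -1.07 to -0.50 in responders and -2.20, -1.28, -1.52 and -1.60 in non-responders. Even the non-responder with the most Hk2 relative to Hk1 was below every responder. The group means were -0.72 ± 0.17 (SD, n = 8) and -1.65 ± 0.39 (SD, n = 4), a difference of -0.93 on the log2 scale. The exact permutation test over every split of the tumours into 8 and 4 gave p = 0.00202, two-sided, which is the smallest it can give, and 0.0101 after adjustment over the 5 ratios tested. The share of all gene pairs whose ratio separates the groups was not computed, so this p has no background beside it. The genes were also chosen with earlier results of these data known. Per length, Hk2 made up 46.4% ± 2.98 of the summed Hk1 and Hk2 level among the 8 responders and 31.5% ± 5.66 among the 4 non-responders (SD). In both groups Hk1 was thus the more abundant on average. Hk1 shares 157 exonic bases with Hk1os on the opposite strand, which was at most at 1.35 CPM.

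**Figure D2:**
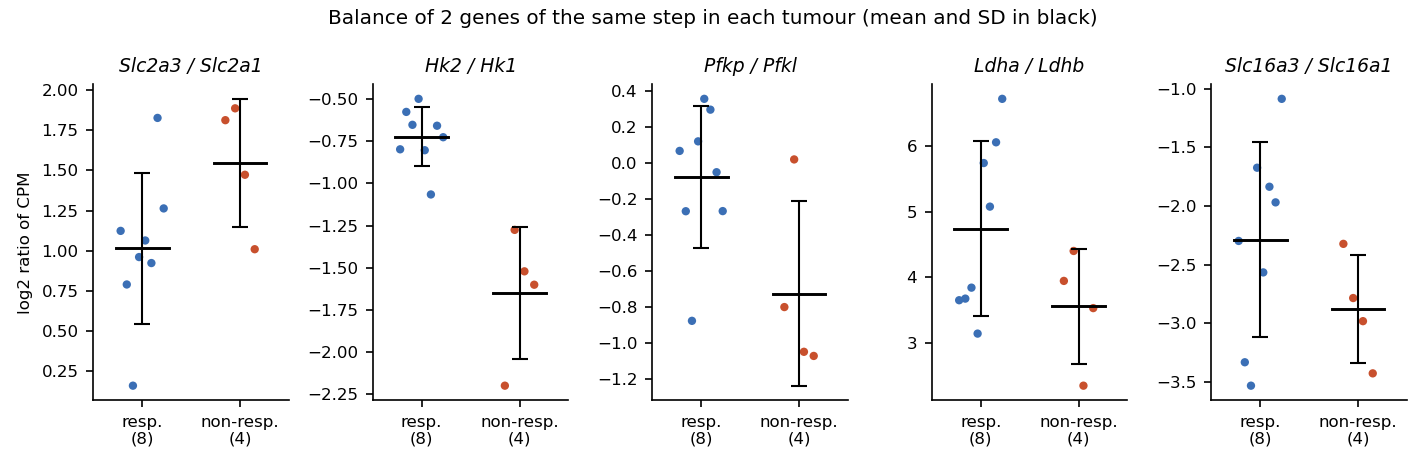
Log2 ratio of the CPM of 2 genes that serve the same step (vertical axis, 1 scale per panel, not starting at 0), 1 point a tumour, in the 8 responders and 4 non-responders, with the mean and SD in black. For Hk2 and Hk1 all non-responders lie at -1.28 or below and all responders at -1.07 or above, and in the other 4 panels the groups overlap.

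Phosphofructokinase makes the committed step, and Pfkp encodes its platelet form. Pfkp was at 75.3 to 171 CPM in responders, with a median of 112, and at 103, 169, 55.0 and 139.8 CPM among non-responders. Non-responder 3 was the lowest and responder 7 the highest of all tumours. The log2 fold change was -0.05 (SE 0.28, edgeR adjusted p = 0.927) and its sign turned without responder 6 or 7 or non-responder 1 or 3 (0.20 without non-responder 3). Pfkp shares 748 exonic bases with Pitrm1 on the opposite strand, which averaged 92.7 CPM among responders and 106 CPM among non-responders, and it is not known whether reads were assigned by strand, so reads there cannot be told apart. Pfkfb3 encodes the enzyme that makes fructose 2,6-bisphosphate, the activator of phosphofructokinase. It was at 59.7 to 104 CPM in responders, with a median of 79.2, and at 51.5, 89.6, 50.2 and 65.4 CPM among non-responders. Non-responders 1 and 3 lay below all responders. Its log2 fold change was -0.36 (SE 0.22, edgeR adjusted p = 0.327), with -0.54 without non-responder 2 and -0.24 without non-responder 3.

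The 3 abundant enzymes of the lower pathway were higher on average in non-responders, and none passed. Pgk1 encodes phosphoglycerate kinase, the first step that yields ATP. It was at 213 to 577 CPM in responders, with a median of 407. Non-responders were at 499, 1193, 347 and 663 CPM, so non-responders 2 and 4 stood above all responders and the other two among them. The log2 fold change was 0.71 (SE 0.32, unadjusted p = 0.045, edgeR adjusted p = 0.2). Without non-responder 2 it was 0.30 (edgeR adjusted p = 0.583). Pgk1 had the widest range of the 10 genes, 5.61-fold between non-responder 2 and responder 4.

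Pkm encodes the muscle-type pyruvate kinase, and the counts per gene do not separate its M1 and M2 splice forms. It was at 906 to 2225 CPM in responders, with a median of 1790.1, and at 1431, 2587, 1664 and 2327 CPM among non-responders. Ldha encodes the subunit of lactate dehydrogenase that favours lactate formation. It was at 321 to 1251 CPM in responders, with a median of 863, and at 936, 1105, 619.9 and 1317 CPM among non-responders. The log2 fold changes were 0.28 (SE 0.26, edgeR adjusted p = 0.522) for Pkm and 0.28 (SE 0.31, edgeR adjusted p = 0.605) for Ldha. Pkm gave 0.15 without non-responder 2, and Ldha 0.11 without non-responder 4, 0.17 without responder 4 and 0.47 without non-responder 3. Both signs turned with the mean level of other-cell markers as a covariate (-0.11 and -0.26) and with 1 surrogate variable estimated from the counts (-0.18 and -0.49). Responder 4 had the lowest Pgk1, Pkm and Ldha of all tumours, and non-responder 2 or non-responder 4 the highest. Responder 4 also had the fewest T-lineage counts (659 CPM) and the most muscle (588 CPM) and adipocyte markers (3041 CPM), and the part of these in its low values was not tested. The 2 rows named as copies of Ldha, Ldha-ps and Ldha-ps2, were at most at 0.98 CPM, and Pgk1-rs7 was at 0.

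For the remaining steps the balance of 2 genes did not pass. The log2 ratio of Slc2a3 to Slc2a1 was 1.01 ± 0.47 among the 8 responders and 1.55 ± 0.40 among the 4 non-responders (SD; exact permutation p = 0.0889, adjusted 0.148). Pfkp to Pfkl, the liver form, gave -0.08 ± 0.40 and -0.72 ± 0.51 (exact permutation p = 0.0424, adjusted 0.106). Pfkl itself was at 131 ± 45.9 CPM among responders and 188 ± 75.8 CPM among non-responders. Ldha to Ldhb, the subunit that favours pyruvate formation, gave 4.74 ± 1.33 and 3.56 ± 0.88 (exact permutation p = 0.143, adjusted 0.179). Ldhb was at 8.89 to 19.8 CPM in responders 5 to 8 and at 36.1 to 87.0 CPM in responders 1 to 4, against 52.2 to 121 CPM among non-responders (log2 fold change of 1.16 with SE 0.56, edgeR adjusted p = 0.23). Slc16a3 to Slc16a1, which encodes the lactate transporter MCT1, gave -2.29 ± 0.83 and -2.88 ± 0.46 (exact permutation p = 0.216, adjusted 0.216). Slc16a1 was at 376 and 403 CPM in responders 2 and 3 and at 79.8 to 144 CPM in the other 6 responders, against 264 to 427 CPM among non-responders. Responders 1 to 3 also had more double-positive thymocyte markers than the other responders, and the part of this in Ldhb and Slc16a1 was not tested. Leaving out 1 tumour brought the adjusted p under the threshold for Slc2a3 to Slc2a1 (0.0455 without responder 7) and for Pfkp to Pfkl (0.0303 without responder 3 or non-responder 2).

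Other genes of the pathway were read from lists of 24 glycolytic enzymes, 16 transporters of glucose and lactate with their partners, 10 pentose phosphate enzymes, 19 genes of pyruvate fate, 20 hypoxia targets and 19 regulators. No gene of these lists passed in edgeR. Of 21 other glycolytic enzymes tested, 8 were higher and 13 lower (median log2 fold change -0.26 beside -0.02 over all genes), and 0 had an unadjusted p under 0.05, where 23.8% of all genes did. DESeq2 called 0 of the 21, where it called 13.2% of all genes. limma-voom called 2, both higher, Pfkm and Ldhb, where it called 4.55% of all genes as higher and 9.26% in all. Gapdh was at 552 ± 169 CPM among responders and 777 ± 233 CPM among non-responders, and Aldoa, the muscle-type aldolase gene, at 565 ± 119 and 440 ± 148 CPM. Pfkm, which encodes the muscle form of phosphofructokinase, was at 27.9 ± 13.6 and 47.9 ± 16.6 CPM (log2 fold change of 0.78 with SE 0.36, edgeR adjusted p = 0.211). Pgk2, Tktl2 and the regulator Sco2 were listed at 0 in every tumour. Overlapping genes were looked up for the members only, so whether these 0 values come from how reads were counted was not tested.

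Of 14 other transport genes tested, 4 were higher and 10 lower (median log2 fold change -0.55), and 5 had an unadjusted p under 0.05, all lower, where 16.1% of all genes tested were lower at that value. Slc2a4 encodes GLUT4, the insulin-responsive transporter of muscle and fat. It was at 1.63 to 31.3 CPM among responders and at 1.01, 0.392, 1.29 and 1.13 CPM among non-responders, without overlap (log2 fold change of -3.28 with SE 0.87, edgeR adjusted p = 0.117). It was the only gene of the 14 without overlap, where 1.18% of all genes tested were lower without overlap. Responder 4, with the most adipocyte and muscle markers, was the highest, and responder 8, with the fewest of the responders (113 and 20.9 CPM), was the lowest responder. Non-responder 2 had the lowest Slc2a4 and the most muscle markers of its group (28.5 CPM), and the part of these cells in the difference was not tested. With the mean level of other-cell markers as a covariate the log2 fold change was -0.38 (SE 0.61). Emb, whose product is a chaperone of lactate transporters, was at 134 ± 65.4 CPM among responders and 51.2 ± 29.2 CPM among non-responders (-1.38, SE 0.42, edgeR adjusted p = 0.117). Slc2a6 was at 6.30 ± 2.65 and 2.87 ± 0.817 CPM (-1.13, SE 0.38, edgeR adjusted p = 0.124). DESeq2 called 3 of the 14 as lower (10.4% of all genes), and limma-voom called 3 as lower (4.71%) and 1, Slc16a1, as higher (4.55%).

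In the pentose phosphate pathway, which branches from glucose 6-phosphate, 5 of 9 tested genes were higher and 4 lower, and 2 had an unadjusted p under 0.05, both higher, beside 7.73% of all genes higher and 23.8% in either direction. Tkt, which encodes transketolase, was at 462 ± 130 CPM among responders and 697 ± 156 CPM among non-responders (log2 fold change of 0.59 with SE 0.22, edgeR adjusted p = 0.143). Pgls, the gene of the lactonase, was at 54.0 ± 33.0 and 102 ± 32.9 CPM (0.92, SE 0.37, edgeR adjusted p = 0.163). G6pdx, the gene of the first enzyme of the branch, was at 46.9 ± 11.0 and 36.0 ± 3.16 CPM (-0.38, SE 0.19, edgeR adjusted p = 0.235).

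Of 19 genes of pyruvate fate, 8 were higher and 11 lower, with 2 and 3 at an unadjusted p under 0.05, 5 in all, which is near the 23.8% of all genes. Pdk4, a kinase gene that shuts pyruvate dehydrogenase in muscle and fat, was at 2.54 to 71.7 CPM among responders and at 1.84, 0.687, 2.21 and 2.45 CPM among non-responders, without overlap (log2 fold change of -3.39 with SE 0.88, edgeR adjusted p = 0.117). Pcx, the pyruvate carboxylase gene, was at 37.7 ± 35.1 and 7.63 ± 1.92 CPM, and here too the groups did not overlap (-2.30, SE 0.62, edgeR adjusted p = 0.117). Pdk4 and Pcx were the only 2 of the 19 genes without overlap, where 1.18% of all genes tested were lower without overlap. Both were highest in responder 4, as Slc2a4 was, and with the other-cell covariate they gave -0.43 (SE 0.58) and -0.25 (SE 0.39). Mpc2, a subunit of the mitochondrial pyruvate carrier, was at 26.9 ± 4.11 and 37.6 ± 7.86 CPM (0.49, SE 0.17, edgeR adjusted p = 0.134). Pdk1, the kinase gene that HIF induces, was at 152 ± 64.8 and 139 ± 43.6 CPM (-0.13, SE 0.33).

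**Figure D3:**
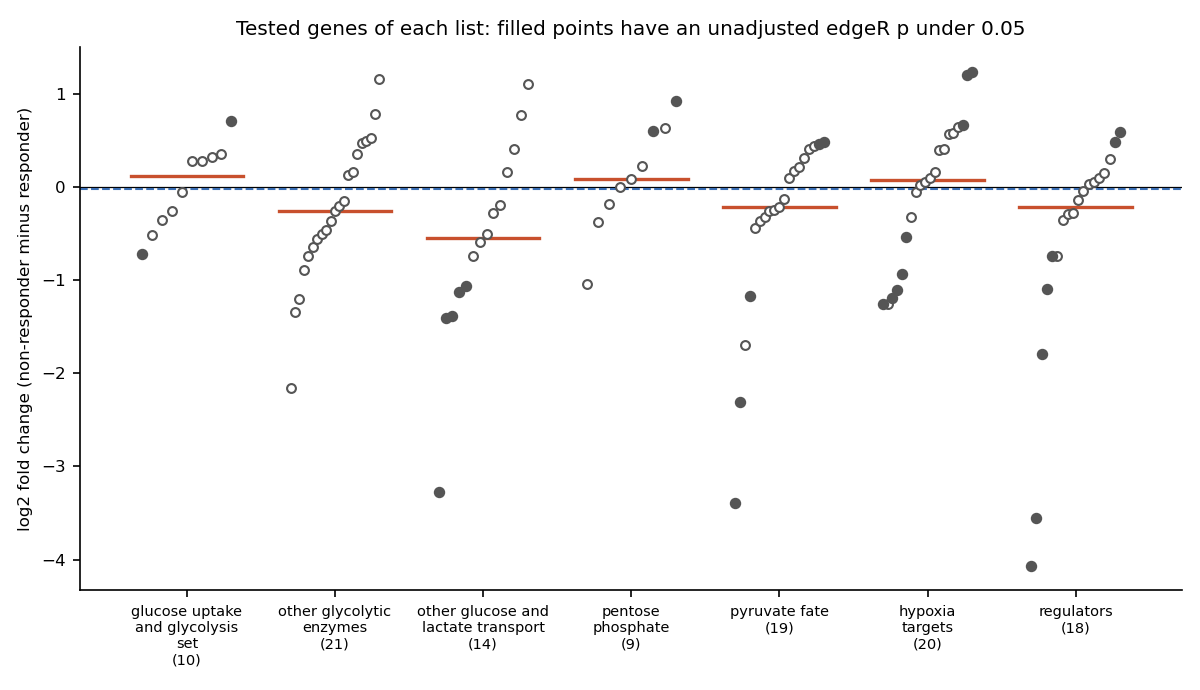
Log2 fold change, non-responder minus responder (vertical axis), of every tested gene of the 10-gene set and of the 6 other lists, 1 point a gene, filled where the unadjusted edgeR p was under 0.05. Red bars are list medians (0.11 for the set) and the dashed line is the median of all genes tested (-0.02). The lowest point of the regulators is Mycn, which had 1 or 2 counts in each non-responder.

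Hypoxia targets went both ways. Of 20 genes, 12 were higher and 8 lower (median log2 fold change 0.07), with 3 and 5 at an unadjusted p under 0.05, beside 7.73% and 16.1% of all genes. Ddit4, which encodes an inhibitor of mTOR that HIF and p53 both induce, was at 59.9 to 125 CPM among responders and at 184, 149.7, 218 and 381 CPM among non-responders, without overlap (1.23, SE 0.24, edgeR adjusted p = 0.117). No other gene of the 20 was without overlap, where 0.951% of all genes tested were higher without overlap. Car9, a carbonic anhydrase gene widely used as a marker of hypoxia, was at 1.405 ± 0.631 and 3.23 ± 1.64 CPM (1.20, SE 0.41, edgeR adjusted p = 0.126). Adm, the adrenomedullin gene, was at 6.03 ± 2.40 and 2.64 ± 0.839 CPM (-1.19, SE 0.38, edgeR adjusted p = 0.119), and Bnip3, a mitophagy gene, at 48.7 ± 28.0 and 22.6 ± 5.67 CPM (-1.11, SE 0.39, edgeR adjusted p = 0.131). Vegfa, at 31.2 ± 21.4 and 13.0 ± 5.19 CPM, was named after its values were seen (-1.26, SE 0.47).

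Of 18 regulators tested, 7 were higher and 11 lower, with 2 and 5 at an unadjusted p under 0.05, beside the same 7.73% and 16.1% of all genes. Tigar, the p53 target that acts against phosphofructokinase, was at 7.42 to 24.5 CPM among responders and at 7.30, 6.91, 5.84 and 5.22 CPM among non-responders. Every non-responder was below every responder, though by a narrow margin (log2 fold change of -1.09 with SE 0.33, edgeR adjusted p = 0.117). No other regulator tested was without overlap, where 1.18% of all genes tested were lower without overlap. Arrdc4, whose product lowers glucose uptake and which is induced by glucose, was at 15.95 ± 7.55 and 4.603 ± 0.91 CPM (-1.79, SE 0.46, edgeR adjusted p = 0.117). Its relative Txnip was at 213 ± 95.0 and 235 ± 48.9 CPM (0.15, SE 0.33). Myc was at 124 ± 42.5 and 96.4 ± 11.4 CPM (-0.36, SE 0.26, edgeR adjusted p = 0.403) and Hif1a at 233 ± 63.2 and 191 ± 31.6 CPM (-0.28, SE 0.23, edgeR adjusted p = 0.469). Txnip, Myc and Hif1a, like Gapdh, Aldoa and Pdk1, did not fall under the rule for named genes and were chosen for their known roles after their values were seen.

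The levels of Slc2a1, Hk2 and Pgk1 were also set beside the content of other cells. The mean log2 CPM of 8 lists of other-cell markers was 2.03 to 2.83 in non-responders and 2.41 to 5.83 in responders. Of the responders only responder 8, at 2.41, lay within the range of non-responders, and the other 7 were at 3.33 or more. The part of other cells in the differences of Slc2a1 and of the Hk2 to Hk1 ratio was not tested. With this mean as a covariate the log2 fold change of Slc2a1 was -0.95 (SE 0.21, edgeR adjusted p = 0.531), and with 1 surrogate variable, -0.87 (edgeR adjusted p = 0.73). Hk2 gave -0.62 and Hk1 0.25 with the covariate, and Pgk1 0.42, or 0.08 with the surrogate variable. Under the other-cell covariate the log2 fold changes of Pkm, Ldha, Slc16a3 and Pfkfb3 changed sign, to -0.11, -0.26, -0.37 and 0.04. Genes of the cell cycle had a higher fitted level in non-responders for 14 of 14 genes, with summed levels of 2294 to 7577 CPM among responders and 4834 to 7863 CPM among non-responders, and their part in the levels of the 10 genes was not tested.

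**Figure D4:**
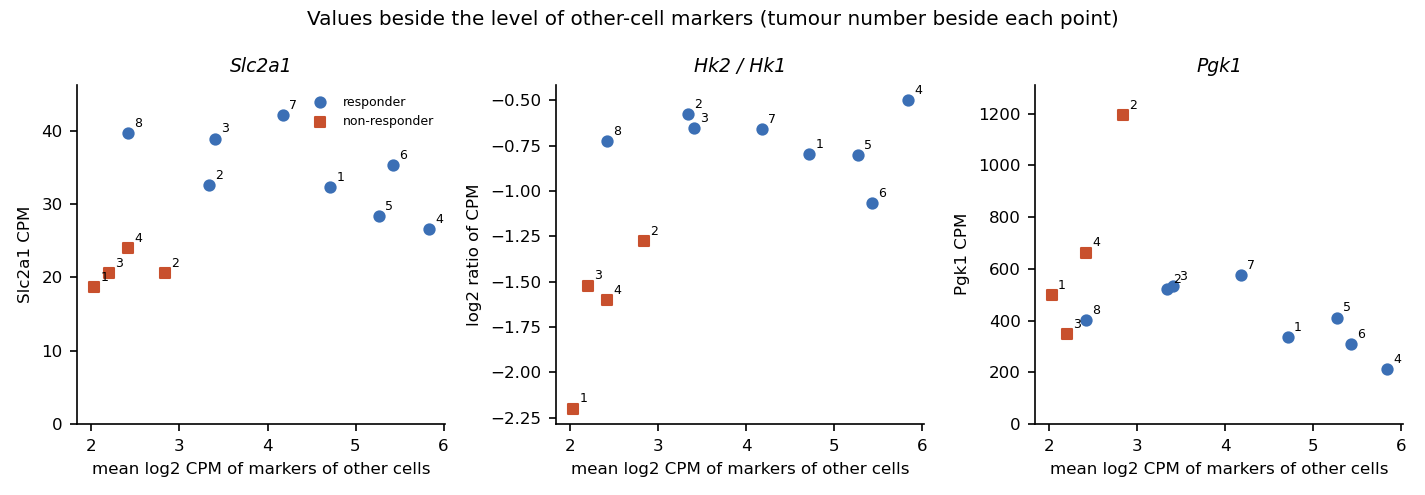
Slc2a1 in CPM, the log2 ratio of Hk2 to Hk1, and Pgk1 in CPM (vertical axes) beside the mean log2 CPM of 8 lists of markers of other cells (horizontal axis) in the 8 responders (circles) and 4 non-responders (squares), each numbered. Responder 8, at 2.41 on the horizontal axis, lies among the non-responders for these markers and is at 39.7 CPM for Slc2a1 and -0.73 for the ratio. This 1 tumour also had the highest sum of mature and activated T-cell markers (1431 CPM). The part of other cells or of T-cell stage in these values was not tested.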

How the data were processed

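RNA-seq counts of 12 tumours were used as the authors deposited them, as raw counts per Ensembl gene in 1 table, whole in every cell. The submitters' processing notes name HTSeq and DESeq without versions, and the build NCBIM37. The labels' extract protocol names mm10 instead, so the build is not settled. Not given in the sources used here: the aligner, whether strand was used, and how reads that map to several places were handled. Symbols and positions are from GENCODE M21 (GRCm38) and 32919 of 37991 identifiers had a symbol.

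Genes were filtered with filterByExpr, scaled by TMM and tested with edgeR 4.0.16 in R 4.3.3 (quasi-likelihood, robust, group as sole term, two-sided). DESeq2 1.42.0, limma 3.58.1 (voom), sva 3.50.0, other scalings and filters, an other-cell covariate and each tumour left out were alternatives. Log2 ratios of 2 genes used a prior count of 2. The procedure was tested on simulated data. The members and lists were chosen with earlier results of these data known. Named genes are the 10 members, their partners in the ratios, the 4 genes of lowest p in each list and list genes without overlap, and the text names part of these. Replicates are numbered in accession order. The labels call the tumours independent, and no 2 libraries agreed within sampling noise (lowest chi-square per degree of freedom 58.8). Totals of 20796860 to 30265753 counts leave counting error small beside the spread between tumours for all 10 genes.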

Additional observations from a re-analysis of the deposited data

Results flagged for a closer look

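A total of 10 values stood apart within their group, where chance gives about 1 in 20 groups and 82 groups were looked at. Among the 10 genes, Hk1 (116 CPM, next 86.8) and Hk2 (74.0 CPM, next 52.4) were highest among responders in responder 3, and Slc16a3 (68.0 CPM, next 37.3) in responder 8. Responder 4 was highest among responders for Slc2a4 (31.3 CPM, next 12.3), Pdk4 (71.7 CPM, next 21.1), Pcx (119 CPM, next 48.8) and Mlxipl (14.97 CPM, next 6.02), and it also had the highest adipocyte (3041 CPM) and muscle (588 CPM) marker sums. Among non-responders, Rpe was highest in non-responder 2 (202 CPM, next 92.4), Bnip3 in non-responder 4 (31.1 CPM, next 20.3) and Mycn in non-responder 1 (0.0918 CPM, next 0.049), the last on 2 counts against 1.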

How the results depend on the processing

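The number of genes past the threshold was 0 in edgeR, 2462 in DESeq2 and 1723 in limma-voom, and 0 to 5 with 1 tumour left out (5 without responder 3, 3 without non-responder 1 and 1 without non-responder 3). Of the 10 genes, 1 passed in DESeq2 and 1 in limma-voom, Slc2a1 in both, and 0 with any tumour left out. The number with an unadjusted p under 0.05, 2 in the main test, was 1 with upper-quartile scaling, limma-voom or the other-cell covariate, and 1 to 2 with 1 tumour left out (1 without responder 1, 4, 5 or 6). With 1 tumour left out the difference in the log2 ratio ran from 0.41 to 0.71 for Slc2a3 to Slc2a1, from -1.05 to -0.74 for Hk2 to Hk1 (adjusted p 0.0152 to 0.0303), from -0.90 to -0.53 for Pfkp to Pfkl, from -1.46 to -0.78 for Ldha to Ldhb and from -0.78 to -0.41 for Slc16a3 to Slc16a1. The groups did not overlap in the Hk2 to Hk1 ratio, so leaving out a tumour could not make them overlap. The adjusted p range of that ratio follows from the group sizes and adds no support.

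Signs of members turned as follows, and the cause was not tested. With 1 surrogate variable Slc2a3 was 0.063, Pkm -0.18 and Ldha -0.49. With the other-cell covariate Pfkfb3 was 0.036, Pkm -0.11, Ldha -0.26 and Slc16a3 -0.37. Pfkp was 0.02 and 0.03 without responder 6 and 7, and 0.01 and 0.20 without non-responder 1 and 3. Among the other named genes, 1 surrogate variable gave Pfkl -0.17, Slc16a1 -0.40, Pklr 0.96, Eno2 1.27, Rpe -0.023 and G6pdx 0.085, and the other-cell covariate gave Slc16a1 -0.23, G6pdx 0.011, Bnip3 0.017 and Mlxipl 0.67. No paired analysis was possible because the labels give no replicate numbers shared by the groups.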
